A study of Mus musculus with 8 samples.

Results

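The genes described here are those whose RNA lay on one side of the naive level on every array of immunized mice, both 7 and 28 days after immunization. All 8 arrays carried RNA of lymph node cells of the inbred strain B10.BR, made into a suspension and sorted on a flow cytometer. They comprised 3 arrays of naive mice, 3 arrays at day 7 and 2 arrays at day 28. A probe set, the group of short probes that stands for a transcript on an Affymetrix array, was taken where its 5 immunized arrays all lay above, or all below, its 3 naive arrays. Of 22626 probe sets that are not controls, 832 met this rule, with 402 (1.78%) higher and 430 (1.90%) lower after immunization. Values in random order over the 8 arrays would give shares of about this size in each direction. The counts alone therefore do not measure an effect of immunization. The split between higher and lower was 253 and 542 after each array was centred on its median. Leaving out 1 array, which can only add probe sets, gave 999 to 3855, the most without naive replicate 1. What the mice were immunized with, which cells were sorted, and the age and sex of the mice are not given in the labels. Nor is it stated that each replicate was a different animal; p-values therefore describe the spread between these arrays, which may be technical.

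Naive lymphocytes circulate through lymph nodes, guided by homing receptors such as Ccr7 and kept alive by interleukin-7 and other signals. After immunization, the cells that recognise the antigen divide, change their homing receptors and take up helper, cytotoxic or antibody-producing roles. A fraction persists as memory cells, which in mice carry more Cd44 and other adhesion and calcium-binding proteins than naive cells. In RNA of a mixed sample, fewer cells of a type and less RNA per cell cannot be told apart.

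Values are log2 ratios to the median of the same probe set, or to a shared floor where that median was lower. A value of 0 therefore marks the middle of the probe set's own arrays, and no value sets the level of one gene against that of another. For probe sets without overlap the middle falls among the immunized arrays, which is why a time point often sits around 0. Folds near the floor understate the change in RNA. The immunized level is the mean of the day 7 mean and the day 28 mean, so each time point counts equally. Differences are given with the standard error (SE) of limma, a linear model with pooled variance, and a probe set is said to be called, or to have risen or fallen, at a Benjamini-Hochberg adjusted p under 0.05 over all probe sets tested.

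Some differences between arrays cut across the groups. Bacterial spike-in controls, added to every sample at hybridisation, had a median log2 ratio between -1.70 and -1.03 on naive replicate 1 and the 3 day 7 arrays, and between 0.64 and 1.41 on naive replicates 2 and 3 and both day 28 arrays. Naive replicate 1 also lay with the day 7 arrays on the first principal component. The spike-in level thus moves with the time points, and its part in any difference was not tested beyond a fit with a spike-in term. Sex-linked RNA differed as well. On one of its probe sets Xist, the RNA of the inactive X chromosome in female cells, read -5.25, -5.58 and -2.17 in the naive group, then 1.84, 0.98 and 1.48 at day 7 and -5.29 and 0.83 at day 28. The Y-linked Eif2s3y stood out in 1 array each of the naive group (replicate 1, 2.87) and of day 28 (replicate 1, 3.70), against a range from -0.59 to 0.24 elsewhere. The part of sex in the differences was not tested. For the Gapdh control, the 3′ minus the 5′ log2 ratio was 0.54, 0.17 and 0.57 in the naive group. At day 7 it was -1.045, -1.18 and 1.165, and at day 28 it was -1.09 and 0.02. The part of this uneven 3′ to 5′ signal was not tested either. Both day 28 arrays carried high values for markers of B cells, with list medians of 2.73 and 1.79 against -0.24 to -0.14 on the other 6 arrays. The medians of T cell identity genes lay between -0.12 and 0.84 on the naive arrays, between -0.73 and 0.28 at day 7 and at -0.45 and 0.18 at day 28.

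Tests were limited to probe sets whose ratio reached 1 on 2 or more arrays, which left 13042 of 22626. Among them, 283 (2.17% of those tested) lay higher on all immunized arrays and 232 (1.78%) lay lower. The counts given later for gene lists are to be read beside these shares. The 317 probe sets without overlap that were not tested had small differences, with a median size of 0.21 and a largest of 0.94. The rule used the same arrays, so the differences of higher and lower ones alike describe how they were chosen and give it no support. In addition, all 283 higher ones passed this filter through their immunized arrays, and 32 of the lower ones through their naive arrays alone. The differences of the 283 higher ones ran from 0.17 to 4.72, with a median of 1.20, and 61 reached 2. The 232 lower ones had a median of -1.01 and a largest fall of 5.38 on the log2 scale, and 16 reached a size of 2. At the edge of the rule, Hdac11, Car4 and Nuf2 cleared the naive arrays by 0.0015 to 0.0017, and Cabp2, Plekha4 and Il12rb1 just touched them. The separation was under 0.5 for most: 85 of the 832 were farther apart than that, and 27 were at least 1 apart.

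In the limma comparison of immunized with naive arrays, 31 probe sets (0.238% of those tested) were called higher and 9 (0.0690%) lower. Of these 40, 27 were among the probe sets without overlap, 18 higher and 9 lower. With no filter, limma called 13 probe sets in all and 7 of these 27, among them S100a4, Cdk1, Slc9a3r1 and 3 probe sets of Igfbp4. The 18 were 17 named genes and 1 probe set that carries several symbols. The 9 were 4 probe sets of Igfbp4, the genes Slc9a3r1, Tdrp, Dda1 and Slfn8, and 1 probe set that carries several symbols. The other 13 called probe sets overlapped the naive arrays at a time point. Of these, 9 were higher at day 28 than at day 7, among them the B cell gene Cd79b and the MHC class II gene H2-Aa, and 4 were lower, among them Plagl1 and Cd160.

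The sequences upstream of 4 called genes with different time courses are printed first, so that the matches described later can be seen. They were chosen after the values were seen: Igfbp4, the largest fall; Slc9a3r1 and Nkg7, a fall and a rise with similar values at both time points; and Cdk1, a cell cycle gene highest at day 7. Each runs 5′ to 3′ over the 250 bases before the RefSeq start of the gene in GRCm38.p6. Capitals mark matches to the CCAAT box (read as ATTGG on the other strand), to the cell cycle element TTTGAA or to the STAT motif TTCNNNGAA. The positions are chr11:99040994-99041243 on the plus strand for Igfbp4, chr11:115163091-115163340 on the plus strand for Slc9a3r1, chr7:43436888-43437137 on the plus strand for Nkg7 and chr10:69352913-69353162 on the minus strand for Cdk1.
Igfbp4: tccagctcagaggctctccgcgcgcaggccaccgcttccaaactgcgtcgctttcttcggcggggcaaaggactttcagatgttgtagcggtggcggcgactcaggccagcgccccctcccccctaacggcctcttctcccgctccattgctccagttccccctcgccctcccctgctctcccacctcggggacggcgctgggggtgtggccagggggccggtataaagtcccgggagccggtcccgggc
Slc9a3r1: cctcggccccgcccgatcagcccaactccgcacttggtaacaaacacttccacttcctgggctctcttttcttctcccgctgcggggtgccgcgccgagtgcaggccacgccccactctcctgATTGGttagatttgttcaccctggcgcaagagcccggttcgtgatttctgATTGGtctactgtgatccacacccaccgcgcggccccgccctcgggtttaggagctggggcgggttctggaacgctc
Nkg7: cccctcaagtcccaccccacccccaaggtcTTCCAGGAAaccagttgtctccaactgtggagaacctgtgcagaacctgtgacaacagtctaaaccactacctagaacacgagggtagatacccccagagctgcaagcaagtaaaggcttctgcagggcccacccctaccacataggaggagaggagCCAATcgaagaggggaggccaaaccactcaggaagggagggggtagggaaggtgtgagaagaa
Cdk1: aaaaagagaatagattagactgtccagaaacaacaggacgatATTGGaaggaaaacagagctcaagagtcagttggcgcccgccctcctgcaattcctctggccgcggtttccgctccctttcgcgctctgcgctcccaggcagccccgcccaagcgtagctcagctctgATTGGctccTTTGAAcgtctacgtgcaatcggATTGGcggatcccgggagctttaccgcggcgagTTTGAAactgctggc

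Slc9a3r1 has CCAAT boxes 127 and 77 bases before its start. Nkg7 has a CCAAT box 63 bases and a STAT match 220 bases before its start. Cdk1 has CCAAT boxes at 208, 80 and 48 bases and the cell cycle element at 71 and 15 bases. The window of Igfbp4, 69.2% G and C, holds no match to the 7 motifs searched. A match describes letters and not a binding site, and no match says only that these letters are not in this window.

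Igfbp4, which encodes an insulin-like growth factor binding protein and is a marker of naive T cells, fell most. On its probe set with the largest difference, the log2 ratios were 3.79, 2.92 and 2.95 in the naive group, then -4.15, -4.43 and -4.39 at day 7 and 0.04 and -0.04 at day 28. The 3 groups formed 3 separate levels, with day 28 between naive and day 7. The immunized level was 41.8-fold lower (log2 difference -5.38 ± 0.29, SE, 5 against 3 arrays; limma adjusted p = 0.00128). A further 3 probe sets of Igfbp4 also lay below naive on all immunized arrays and were called, with differences of -3.85, -3.96 and -4.68. The fifth, with a difference of -0.81, overlapped. On the probe set with the largest difference, the mean difference from naive was -7.55 at day 7 and -3.22 at day 28, both called.

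The other called falls had different time courses. Slc9a3r1, which encodes the scaffold protein NHERF1 under the plasma membrane, read 1.96, 1.96 and 2.20 in the naive group, then -0.04, 0.04 and -0.62 at day 7 and -0.76 and -0.43 at day 28. All immunized arrays lay close together and far below naive. It fell 5.42-fold (-2.44 ± 0.26, limma adjusted p = 0.0256), and day 28 minus day 7 was -0.38, with a 95% interval from -1.14 to 0.37. Its upstream sequence, printed above, is the one with CCAAT boxes at 127 and 77 bases. Its other 2 tested probe sets overlapped, with differences from -2.01 to -0.70, and the mean of all its probe sets was not called (-1.72, limma adjusted p = 0.625).

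Tdrp, a gene described in testis, read 1.23, 1.98 and 1.58 in the naive group, then -1.86, -2.97 and -2.56 at day 7 and -0.79 and 0.51 at day 28. Day 7 stood lowest and day 28 between. It fell 7.46-fold (-2.90 ± 0.41, limma adjusted p = 0.0411). Slfn8, a member of the Schlafen family linked to T cell quiescence and growth, read 1.41, 1.48 and 0.60 in the naive group, then -2.16, -1.89 and -1.77 at day 7 and -0.14 and 0.13 at day 28. It followed the same order and fell 4.39-fold (-2.13 ± 0.29, limma adjusted p = 0.0379). Against naive at day 28, neither Tdrp (-1.74, limma adjusted p = 0.479) nor Slfn8 (-1.17, limma adjusted p = 0.532) was called. Dda1, a partner of a ubiquitin ligase complex, went the other way. Its log2 ratios were 1.14, 1.49 and 1.07 in the naive group, then 0.12, -0.30 and -0.13 at day 7 and -2.34 and -1.46 at day 28. Day 28 stood lowest, and it fell 4.71-fold (-2.24 ± 0.29, limma adjusted p = 0.0354). At day 7 it was not called against naive (-1.34, limma adjusted p = 0.118). The mean of its 3 probe sets was not called (-1.15, limma adjusted p = 0.103).

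Ccr7, Lef1 and Il7r, classical genes of naive and resting T cells, lay below naive on all immunized arrays without passing the test. Ccr7, the receptor that brings naive T cells into lymph nodes, read 0.75, 4.01 and 3.74 in the naive group, then -2.08, -1.36 and -1.65 at day 7 and -0.76 and 0.50 at day 28. Naive replicate 1 stood close to day 28 and far below the other naive arrays. The difference was -3.75 ± 0.76 (limma adjusted p = 0.15). Lef1, a transcription factor of naive T cells, read 0.88, 3.81 and 3.68 in the naive group, then -0.10, -0.74 and -0.11 at day 7 and -0.55 and -0.36 at day 28. It differed by -3.18 ± 0.67 (limma adjusted p = 0.176), with nearly the same value at both time points. With the spike-in term both were called, at differences of -3.23 (limma adjusted p = 0.0303) for Ccr7 and -2.70 (0.0236) for Lef1. That term also ended 7 of the 27 calls, those of Ms4a1, Ccr6, Casp4, Lgals3, Irf8, Dda1 and Tdrp, at limma adjusted p-values between 0.0513 for Dda1 and 0.0625 for Lgals3.

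Il7r, the receptor for interleukin-7, had 2.70, 2.59 and 0.63 on the naive arrays, against -0.82 to 0.20 on the 5 immunized arrays. It differed by -2.28 ± 0.51 (limma adjusted p = 0.202), and its second probe set overlapped (-1.43). Naive replicate 1, the naive array with the low spike-in level, was the lowest naive array for Ccr7 and Lef1 and the highest for Il7r, where naive replicate 3 was lowest. Between arrays of low spike-in level, day 7 minus naive replicate 1 was -2.45 for Ccr7, -1.19 for Lef1 and -3.21 for Il7r. Between arrays of high level, day 28 minus naive replicates 2 and 3 was -4.01, -4.20 and -1.71. The naive and resting T cell list had 40 tested probe sets of 20 genes. Of these, 7 probe sets of 4 genes lay lower without overlap and 0 higher, beside 1.78% and 2.17% over all tested probe sets. The list median was -0.80, beside 0.05 over all tested probe sets, and its 4 called probe sets are those of Igfbp4. Klf2 (-0.61) and S1pr1 (-0.31), which keep naive cells recirculating, overlapped.

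**Figure D1:**
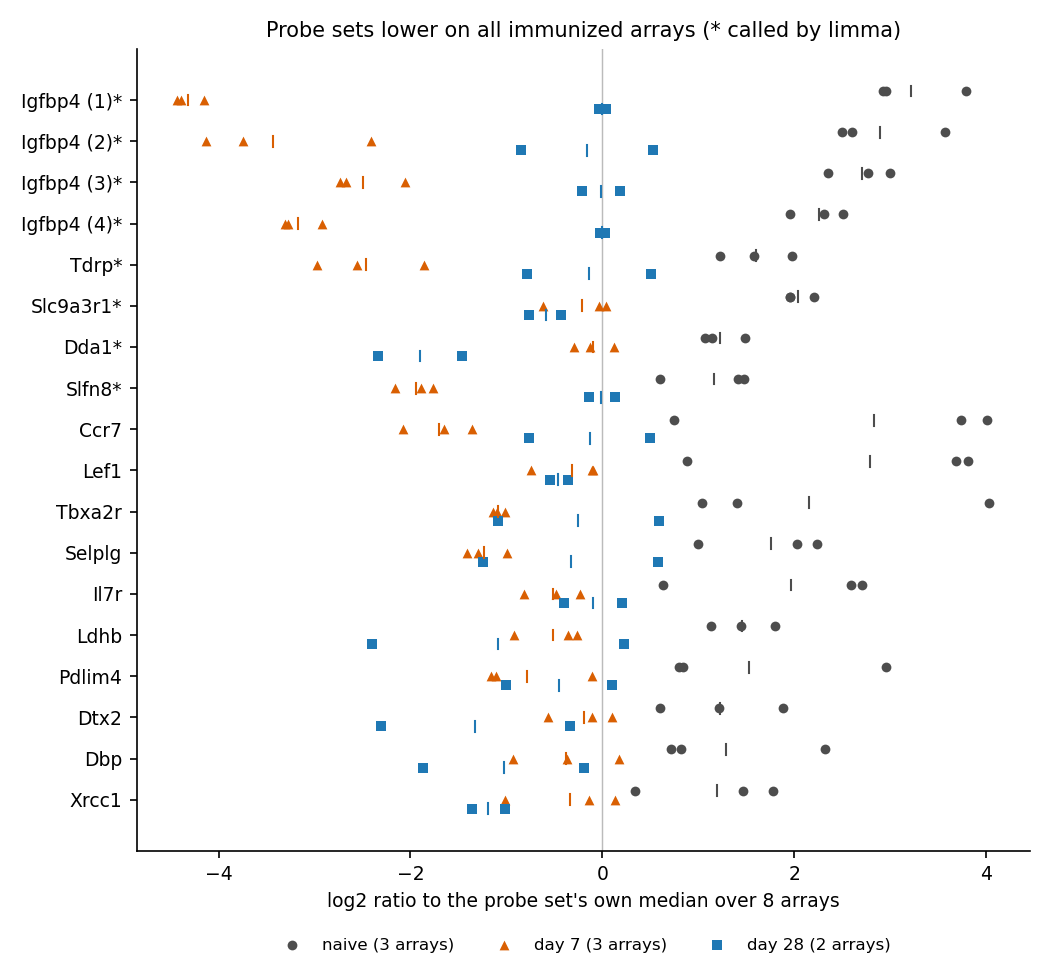
Log2 ratios (horizontal axis) on each naive, day 7 and day 28 array for the largest falls among probe sets lower on all immunized arrays. Short vertical lines are group means, and an asterisk marks a call by limma. Igfbp4 has 3 separate levels, Slc9a3r1 has day 7 and day 28 side by side, and in Ccr7 and Lef1 naive replicate 1 is the lowest of the naive arrays.

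A further 7 of the largest falls, none of them called, complete those that were named. Tbxa2r, the thromboxane A2 receptor, differed by -2.82 ± 0.72 (limma adjusted p = 0.268), with naive replicate 2 at 4.03 and the other naive arrays at 1.04 and 1.40. Selplg, the selectin ligand PSGL-1, had 1.0, 2.24 and 2.03 on the naive arrays against -1.41 to 0.58 after immunization, a difference of -2.54 ± 0.48 (adjusted p = 0.118). Ldhb, the lactate dehydrogenase subunit typical of oxidative tissue, lay lower by 3 of its 4 tested probe sets, with a largest difference of -2.26 (adjusted p = 0.261). In Ldhb, day 28 replicate 1 stood apart from day 28 replicate 2, at -2.40 against 0.22. Pdlim4, a cytoskeletal adaptor, differed by -2.15, Dtx2, a Deltex ubiquitin ligase, by -1.99, Dbp, a clock-controlled transcription factor, by -1.99, and Xrcc1, a DNA repair scaffold, by -1.96. Their limma adjusted p-values ran from 0.182 for Xrcc1 to 0.322 for Pdlim4.

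Genes that mark antigen-experienced T cells were among the called rises. S100a4, a calcium-binding protein abundant in effector and memory T cells, read -2.31, -2.70 and -2.93 in the naive group, then 2.19, 2.06 and 2.30 at day 7 and -0.35 and 0.28 at day 28. The arrays of each group were close to each other and the 3 groups were far apart, with day 7 highest. It rose 13.2-fold (3.72 ± 0.27, limma adjusted p = 0.0036), and was called against naive at day 7 (4.83) and at day 28 (2.61). S100a6, a relative of S100a4, read -1.34, -1.57 and -0.59 in the naive group, then 3.62, 2.83 and 3.12 at day 7 and -0.05 and 0.05 at day 28. It rose 6.79-fold (2.76 ± 0.32, limma adjusted p = 0.0281). Against naive it was called at day 7 (4.36) and not at day 28 (1.17, limma adjusted p = 0.616).

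Lgals3, the galactose-binding lectin galectin-3, read -0.78, -1.56 and -1.42 in the naive group, then 2.56, 3.49 and 4.34 at day 7 and -0.18 and 0.16 at day 28. It rose 7.88-fold (2.98 ± 0.43, limma adjusted p = 0.0459), and is made by macrophages as well as by activated T cells. Cxcr3, the chemokine receptor of Th1 and memory cells, read -1.80, -1.81 and -0.98 in the naive group, then 2.93, 3.76 and 2.95 at day 7 and -0.37 and 0.29 at day 28. It rose 8.66-fold (3.11 ± 0.35, limma adjusted p = 0.0277). Both had their day 28 arrays above the naive ones, by 0.60 for Lgals3 and 0.61 for Cxcr3. Against naive, both were called at day 7. Neither was called at day 28 (1.24 for Lgals3 and 1.49 for Cxcr3, limma adjusted p = 0.781 and 0.479). The memory T cell list had 34 tested probe sets of 22 genes. Of these, 11 lay higher on all immunized arrays and 1 lower, beside 2.17% and 1.78% over all tested probe sets. The 4 genes above were called. The list median was 1.31, and day 7 and day 28 had medians of 1.54 and 0.72.

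The other memory list genes without overlap were not called. Cd44, the adhesion receptor that marks activated and memory T cells, read -0.84, -2.65 and -2.72 in the naive group, then 3.15, 2.26 and 1.73 at day 7 and -0.33 and 0.27 at day 28. It differed by 3.25 ± 0.54 (limma adjusted p = 0.0818), was called with the spike-in term (2.94, limma adjusted p = 0.0433), and had a second probe set that overlapped (0.14). Anxa2, an annexin that partners S100 proteins, differed by 3.26, Ahnak, a giant scaffold protein, by 2.98, Klrg1, a receptor of differentiated T and NK cells, by 1.94, and Id2, a transcriptional inhibitor, by 1.93. The intermediate filament gene Vim had 0.72 and cleared the naive arrays by 0.003. Emp3, a membrane protein on the same list, lay lower (-1.22). These 6 genes lie outside the naming rule and were named to account for the list.

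The cytotoxic gene Nkg7 and the inflammatory caspase Casp1 rose in the mean of the time points, with day 7 and day 28 at similar values. Nkg7, a granule membrane protein of cytotoxic lymphocytes, read -2.69, -3.73 and -3.37 in the naive group, then 0.21, 1.72 and 0.45 at day 7 and 0.12 and -0.13 at day 28. Every immunized array stood at least 2.56 above the highest naive array, the widest separation among the 17 named genes that rose. It rose 12.6-fold (3.65 ± 0.42, limma adjusted p = 0.0281), and day 28 minus day 7 was -0.80, with a 95% interval from -2.01 to 0.42. Its difference from naive was 4.05 at day 7, which was called, and 3.26 at day 28, which was not (limma adjusted p = 0.0775). Cst7, the inhibitor of granule proteases cystatin F, had -1.75, -1.84 and -1.83 on the naive arrays and between -0.13 and 2.15 after immunization, but was not called (2.44 ± 0.37, limma adjusted p = 0.0629). These were 2 of the 10 tested probe sets of the cytotoxic list, whose median was 0.90. Cd8a, the co-receptor of cytotoxic T cells, overlapped, with 4.21 and 2.25 at day 28 and between -0.69 and 0.11 elsewhere.

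Casp1, which processes interleukin-1, read -2.72, -2.81 and -2.18 in the naive group, then 1.31, 0.24 and 0.25 at day 7 and 0.11 and -0.12 at day 28. It rose 7.29-fold (2.87 ± 0.34, limma adjusted p = 0.0281), with day 28 minus day 7 at -0.60 and a 95% interval from -1.58 to 0.38. Against naive it too was called at day 7 (3.17) but not at day 28 (2.56, limma adjusted p = 0.0836). Casp4, its relative that senses bacterial lipopolysaccharide, read -2.31, -2.06 and -1.01 in the naive group, then 3.92, 2.12 and 3.27 at day 7 and 0.21 and -0.25 at day 28. It rose 10.1-fold (3.34 ± 0.48, limma adjusted p = 0.0477) and stood highest at day 7. Against naive it was called at day 7 (4.90) and not at day 28 (1.78, limma adjusted p = 0.607). Casp1 and Casp4 were the only members among 41 tested probe sets of apoptosis regulators, a list whose other genes overlapped and whose median was 0.14.

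Among migration receptors, Ccr6, the receptor for Ccl20 on B cells and Th17 cells, rose 12.8-fold (3.68 ± 0.51, limma adjusted p = 0.0379). Its log2 ratios were -2.37, -2.44 and -3.74 in the naive group, then -0.94, 0.56 and 0.81 at day 7 and 1.36 and 1.66 at day 28. Day 28 stood highest, though day 28 minus day 7 was not called (1.36, 95% interval from -0.09 to 2.82). Against naive, Ccr6 was called at day 28 (4.36) and not at day 7 (2.99, limma adjusted p = 0.0583). Of the 31 tested probe sets of migration receptors and integrins, 5 lay higher (Ccr6, Cxcr3, Cxcr5, Cd44 and, by 0.50, Ccr2) and 3 lower (Ccr7, Selplg and, by -1.73, S1pr4). The list median was 0.03. S1pr4, a receptor for sphingosine phosphate, and Ccr2, a receptor of monocytes and effector cells, were named to complete the count.

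Several receptors of T cell help and activation lay above naive on all immunized arrays, again mostly without a call. Cxcr5, the receptor that leads B cells and follicular helper T cells into follicles, read -3.36, -3.38 and -3.20 in the naive group, then 2.38, -0.91 and 1.63 at day 7 and 0.55 and 0.65 at day 28. The naive arrays lay close to each other while the day 7 arrays were scattered. It differed by 4.13 ± 0.68 (limma adjusted p = 0.0818), and by a similar amount at both time points (4.35 and 3.92). Pdcd1, the inhibitory receptor PD-1, read -2.09, -1.95 and -2.15 in the naive group, then 3.60, 0.76 and 2.33 at day 7 and -0.45 and 0.34 at day 28. It differed by 3.15 ± 0.59 (limma adjusted p = 0.118). Icos, the costimulator of helper cells, differed by 2.31 (adjusted p = 0.369), and Tnfsf8, the ligand of CD30, by 1.97 (adjusted p = 0.121). Ctla4, an inhibitory receptor, had -0.87, -1.40 and -2.20 on the naive arrays against -0.17 to 2.60 after immunization (2.37, adjusted p = 0.118).

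Il4, the cytokine of Th2 and follicular helper cells, read -0.70, -0.69 and -0.76 in the naive group, then 5.13, 2.21 and 3.01 at day 7 and -0.61 and -0.20 at day 28. Its day 28 arrays cleared naive by 0.08 only, and the difference of 2.24 was not called (limma adjusted p = 0.314). Bcl6, the factor that directs follicular helper cells, overlapped (1.94 ± 0.46, limma adjusted p = 0.232), and so did Foxp3 (-0.88), the factor of regulatory T cells. Of 20 tested probe sets of follicular helper genes 5 lay higher without overlap and 0 lower, with a list median of 1.87. Of 22 of T cell activation 4 lay higher and 0 lower, with a median of 1.15. Both lists stood higher at day 7 (medians 2.80 and 1.92) than at day 28 (0.29 and 0.44). Nrp1, a semaphorin receptor of regulatory T cells, rose 6.88-fold (2.78 ± 0.35, limma adjusted p = 0.0327). Its values were -1.38, -2.13 and -1.37 in the naive group, then 2.60, 2.36 and 2.34 at day 7 and -0.72 and 0.48 at day 28. Against naive it was called at day 7 (4.06) and not at day 28 (1.50, limma adjusted p = 0.479). Another of its 3 probe sets also lay higher throughout (1.90), and the mean of the 3 was not called (2.23, limma adjusted p = 0.0561).

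**Figure D2:**
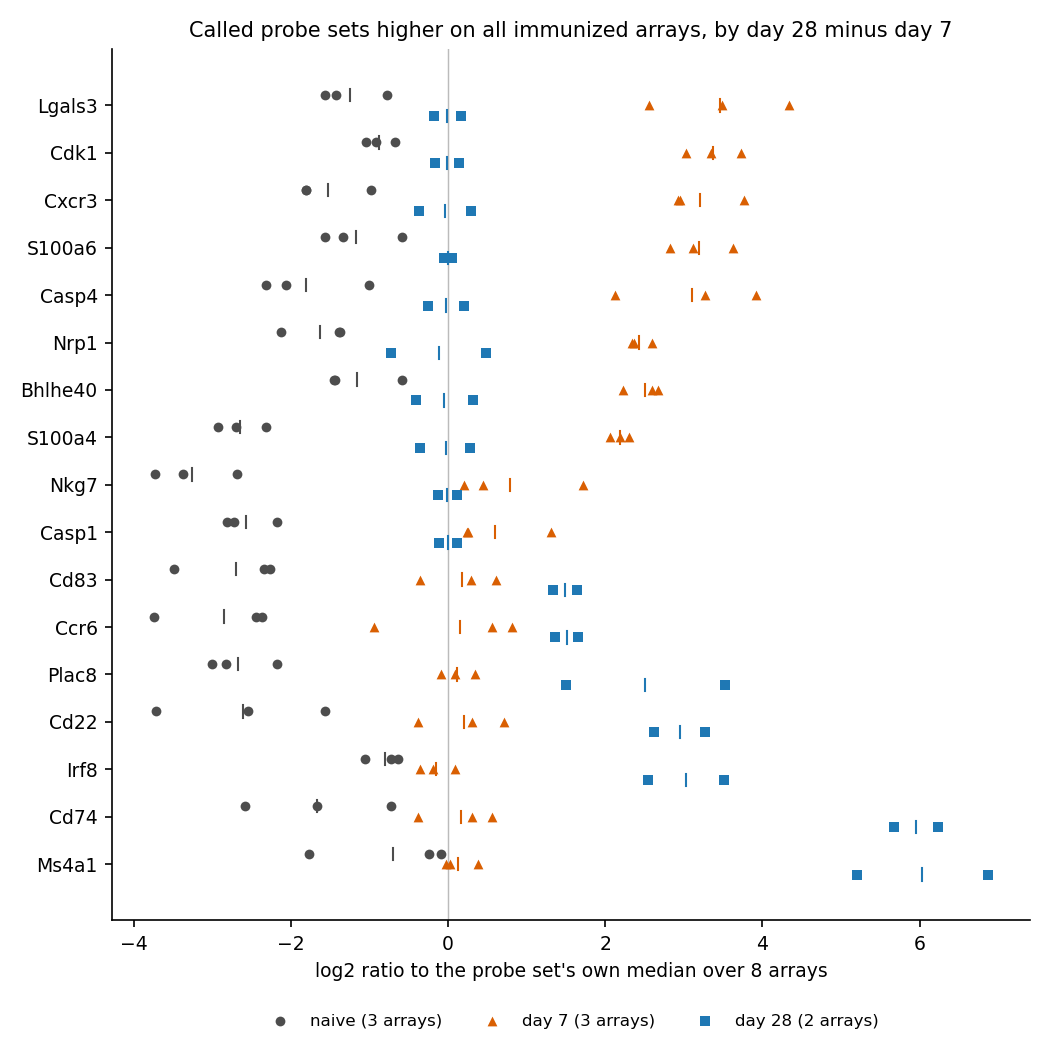
Log2 ratios (horizontal axis) on each array for the 17 named genes called higher after immunization, ordered by day 28 minus day 7. Short vertical lines are group means. Lgals3 at the top has day 28 close to naive and day 7 far above, Nkg7 and Casp1 in the middle have both time points side by side, and Cd74 and Ms4a1 at the bottom have day 7 close to naive and day 28 far above.

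The B cell and antigen presentation genes among the rises had their highest values at day 28. Cd74, the invariant chain that escorts MHC class II molecules, read -0.72, -2.58 and -1.67 in the naive group, then 0.56, 0.30 and -0.38 at day 7 and 5.67 and 6.23 at day 28. Day 7 cleared naive by 0.34, while day 28 stood far above both. It rose 26.3-fold in the mean of the time points (4.72 ± 0.46, limma adjusted p = 0.0180), of which day 28 gave a difference of 7.61 and day 7 one of 1.82, the latter not called. Ms4a1, the B cell surface protein CD20, read -0.09, -1.77 and -0.24 in the naive group, then 0.38, 0.02 and -0.02 at day 7 and 6.87 and 5.20 at day 28. It rose 13.8-fold in the mean of the time points (3.78 ± 0.52, limma adjusted p = 0.0379), but its day 7 arrays cleared naive by only 0.07. Against naive, Ms4a1 was called at day 28 (6.74) and not at day 7 (0.83, limma adjusted p = 0.4996). Its second probe set overlapped (0.64), which left the mean of both uncalled (2.21, limma adjusted p = 0.0798).

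Cd22, an inhibitory lectin of B cells, read -1.56, -3.72 and -2.54 in the naive group, then 0.30, 0.71 and -0.38 at day 7 and 3.27 and 2.62 at day 28. It rose 18.2-fold (4.19 ± 0.51, limma adjusted p = 0.0303). Cd83, a marker of mature dendritic cells and activated lymphocytes that stabilises MHC class II, read -3.49, -2.27 and -2.34 in the naive group, then 0.29, -0.36 and 0.61 at day 7 and 1.64 and 1.33 at day 28. It rose 11.5-fold (3.53 ± 0.38, limma adjusted p = 0.0256) and was called against naive at day 7 (2.87) and at day 28 (4.18). At day 7 both genes cleared naive by a wider step than Cd74 and Ms4a1, by 1.19 for Cd22 and 1.91 for Cd83. Cd22 was still not called against naive at day 7 (2.82, limma adjusted p = 0.0757). Plac8, a small cysteine-rich protein of myeloid and lymphoid cells, read -2.18, -3.00 and -2.82 in the naive group, then -0.09, 0.34 and 0.09 at day 7 and 3.52 and 1.50 at day 28. It rose 15.7-fold (3.98 ± 0.47, limma adjusted p = 0.0281). Against naive, Plac8 was called at day 28 (5.18) and not at day 7 (2.78, limma adjusted p = 0.0583).

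Ly6d, a surface marker of B lineage cells, was not called (3.19 ± 0.60, limma adjusted p = 0.118), with 6.85 and 3.90 at day 28, -0.05 to 0.14 at day 7 and -0.75 to -0.16 on the naive arrays. Pou2af1, a coactivator of octamer factors in B cells and helper T cells, differed alike at day 7 (2.77) and day 28 (2.37) and was not called (2.57 ± 0.40, limma adjusted p = 0.0706). Jchain, which joins secreted antibodies, differed by 1.81 (limma adjusted p = 0.487). The B cell list had 27 tested probe sets of 19 genes. Without overlap 4 lay higher (Cd22, Ms4a1, Ly6d and Pou2af1), beside 2.17% over all tested probe sets. Of these, Cd22 and Ms4a1 were called, and the others of the list's 4 calls, such as Cd79b, overlapped naive. Called higher at day 28 than at day 7 were 16 of the 27, beside 0.422% over all tested probe sets. The B cell list median was -0.05 at day 7 and 2.44 at day 28, and the MHC class II list behaved alike (-0.07 and 1.93). The part of B cells in the day 28 values of genes shared between cell types, such as Ccr6, Cxcr5, Cd83 and Plac8, was not tested.

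Several genes of cell division lay above naive on all immunized arrays and had their highest values at day 7. Cdk1, the main mitotic kinase, read -0.92, -0.67 and -1.04 in the naive group, then 3.34, 3.03 and 3.73 at day 7 and -0.16 and 0.14 at day 28. The day 28 arrays cleared the naive ones by 0.51. It rose 5.88-fold (2.56 ± 0.26, limma adjusted p = 0.0224), and its upstream sequence, printed above, carries 3 CCAAT boxes and 2 cell cycle elements. Against naive, Cdk1 was called at day 7 (4.24) and not at day 28 (0.87 ± 0.33, limma adjusted p = 0.698). Mki67, the proliferation antigen Ki-67, read -1.63, -2.71 and -1.34 in the naive group, then 1.34, 1.69 and 1.94 at day 7 and -0.99 and 0.58 at day 28. It was not called (2.62 ± 0.47, limma adjusted p = 0.107).

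The other division genes that were named cleared naive at day 28 by small steps. Ccna2, cyclin A2, differed by 2.43 (limma adjusted p = 0.107) with a gap of 0.03, Cdca5, the cohesin factor sororin, by 2.52 (adjusted p = 0.0785) with a gap of 0.13, and Nusap1, a spindle protein, by 1.65 (adjusted p = 0.118) with a gap of 0.04. Of the 47 tested probe sets of mitosis genes (32 genes), 7 lay higher without overlap, 0 lay lower and 1 was called. The list median was 1.77 at day 7 and -0.02 at day 28. Called lower at day 28 than at day 7 were 14 of the 47, beside 0.882% over all tested probe sets. All 49 probe sets of DNA replication genes overlapped. Egln3, an oxygen-sensing prolyl hydroxylase outside these lists, had 3.76, 2.37 and 2.56 at day 7 but cleared naive by only 0.02 at day 28 (1.91, limma adjusted p = 0.118).

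Lymphocyte transcription factors had 9 of 90 tested probe sets higher without overlap, 1 lower (Lef1), and a list median of 0.22. Bhlhe40, a repressor active in effector T cells, read -1.45, -1.44 and -0.59 in the naive group, then 2.23, 2.67 and 2.59 at day 7 and 0.32 and -0.41 at day 28. It rose 5.22-fold (2.38 ± 0.32, limma adjusted p = 0.0379). Irf8, a factor of B cells and myeloid cells, read -0.72, -0.63 and -1.05 in the naive group, then 0.09, -0.19 and -0.36 at day 7 and 3.51 and 2.55 at day 28. It rose 4.72-fold (2.24 ± 0.30, limma adjusted p = 0.0379), with a second probe set without overlap at 0.75 and an uncalled mean of both (1.50, limma adjusted p = 0.0848). Bhlhe40 stood highest at day 7 and Irf8 at day 28. Against naive, Bhlhe40 was not called at day 28 (1.11, limma adjusted p = 0.653), nor was Irf8 at day 7 (0.65, limma adjusted p = 0.392). Rora, a factor of Th17 and innate lymphoid cells, differed by 1.96 (limma adjusted p = 0.107), Id2 by 1.93, Hopx, a homeodomain protein of effector cells, by 2.72 and Runx1, a factor of blood cell development, by 0.59, all without a call.

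Monocyte and macrophage genes had 6 of 21 tested probe sets higher and 2 lower without overlap, and 1 call (Lgals3). Lyz2, the lysozyme of myeloid cells, had 5.43 and 2.19 at day 28, -0.08 to 0.90 at day 7 and -0.61 to -0.16 on the naive arrays, and was not called (2.48 ± 0.68, limma adjusted p = 0.317). Lyz1 (2.34, adjusted p = 0.136), Mpeg1, a pore-forming protein of macrophages (1.39, adjusted p = 0.386), and Csf1r, the receptor for the growth factor of macrophages (2.14), also lay higher, and C1qb (-0.34) and Ctsd (-1.25) lower. The list median was 0.50 at day 7 and 0.54 at day 28. Over all tested probe sets, 2.17% lay higher and 1.78% lower without overlap. Dendritic cell genes had 1 of 6 probe sets without overlap (Plac8), NK cell genes 1 of 9 (Nkg7) and neutrophil genes 0 of 4. The part of these cells in the result was not tested.

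Lists with few or no genes on one side complete the picture. Over all tested probe sets, 2.17% lay higher and 1.78% lower without overlap, so a single probe set in such a list is no result about the list. In T cell identity 1 of 21 tested probe sets lay lower, Bcl11b, a factor that maintains T cell fate (-1.24, limma adjusted p = 0.379). Phospholipid signalling had Prkcb, a protein kinase C, higher (2.22, adjusted p = 0.249) and Rasgrp2, a Rap activator of resting cells, lower (-0.56, adjusted p = 0.538). Interferon response genes had 1 of 30 lower, the antiviral gene Oas2 (-1.65, adjusted p = 0.378), and immediate early genes had Ier5 lower (-0.25). In cholesterol synthesis Sc5d lay higher (1.10) and Dhcr7 lower (-1.73). In the secretory pathway Pdia3 lay higher (1.60) and Herpud1 by 0.36, and in ribosome biogenesis Npm1, a nucleolar chaperone, lay higher (1.88). None of these was called. Glycolysis (24 probe sets), oxidative phosphorylation (68), cytosolic ribosome (35) and MHC class I (25) all overlapped.

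**Figure D3:**
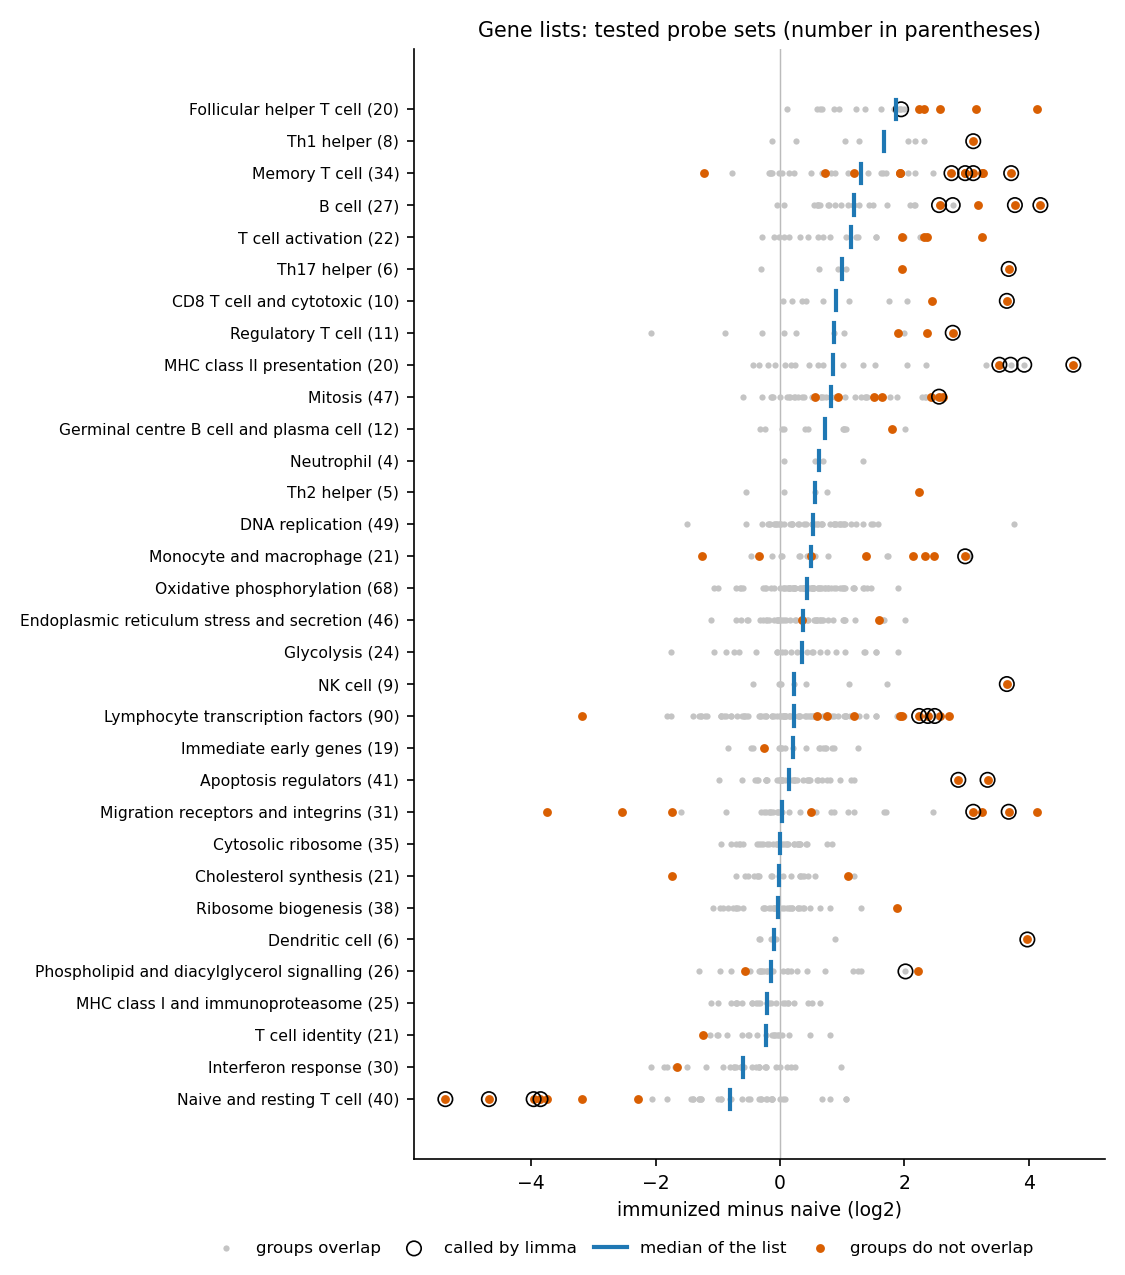
Immunized minus naive log2 difference (horizontal axis) of every tested probe set in 32 lists with at least 4 of them, with the number in parentheses. Grey points overlap between groups, orange points do not, open circles are called by limma and blue bars are list medians. Calls lie toward the right in the memory T cell, B cell and MHC class II lists and, for Igfbp4, at the left end of the naive and resting T cell list. Other lists, such as mitosis and apoptosis regulators, hold calls as well. In the memory T cell list the uncalled Anxa2 and Cd44 lie among the called points.

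The time points were then compared with each other. The rule used the values of both, though not the difference between them, so the share of its probe sets called here is a description. Over all tested probe sets, limma called 55 (0.422%) higher and 115 (0.882%) lower at day 28 than at day 7. Among the 515 tested probe sets without overlap, 20 (3.88%) were called. Of the 283 higher than naive, 4 were higher at day 28 (Cd74, Ms4a1, Irf8 and Ly6d) and 13 lower. The largest of these decreases were those of Lgals3 (-3.47, 95% interval from -4.70 to -2.24), Cdk1 (-3.37, from -4.14 to -2.61), Cdca5 (-3.36), Egln3 (-3.35) and Ccna2 (-3.27), with limma adjusted p-values between 0.00639 and 0.0379. Also called were Cxcr3 (-3.25), S100a6 (-3.19), Nusap1 (-2.82), Nrp1 (-2.55), Bhlhe40 (-2.54) and S100a4 (-2.22). Against naive at day 28, S100a4 was called, and Cdk1, Cdca5, Ccna2 and Nusap1 were not.

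Of the 232 lower than naive, 3 were called between the time points, all of them probe sets of Igfbp4, higher at day 28 by 2.47, 3.17 and 4.32. The day 28 arrays coincide with the high spike-in level and the day 7 arrays with the low one. With a spike-in term, which rests on the 3 naive arrays to separate level from time, limma called 0 of the members between the time points, with 56 at an unadjusted p under 0.05, beside 88 without the term. The median over all tested probe sets was -0.16, and -0.02 after each array was centred on its median. Without day 28 replicate 1, 2 members were called, and without naive replicate 1, 34.

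The differences from naive at day 7 and at day 28 share the naive arrays, so they are set side by side and not correlated. Against naive, limma called 138 probe sets (1.06%) higher and 14 (0.107%) lower at day 7, and 35 (0.268%) higher and 7 (0.0537%) lower at day 28. Among the tested probe sets without overlap, these calls covered 42 higher and 10 lower at day 7, and 9 higher and 6 lower at day 28. The rule used these same values, which fixed the direction of these calls, so their number is a description and no support. Called at both time points were 2 rising genes, S100a4 and Cd83, and 4 falling probe sets, 3 of Igfbp4 and 1 of Slc9a3r1. The median difference of the higher ones was 1.38 at day 7 and 0.94 at day 28, and 185 of 283 lay farther from naive at day 7. For the lower ones the medians were -0.94 and -0.91, with 131 of 232 farther at day 7. The time points lay within 0.5 of each other for 126 of the higher and 170 of the lower ones, and over 1 apart for 82 and 19.

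**Figure D4:**
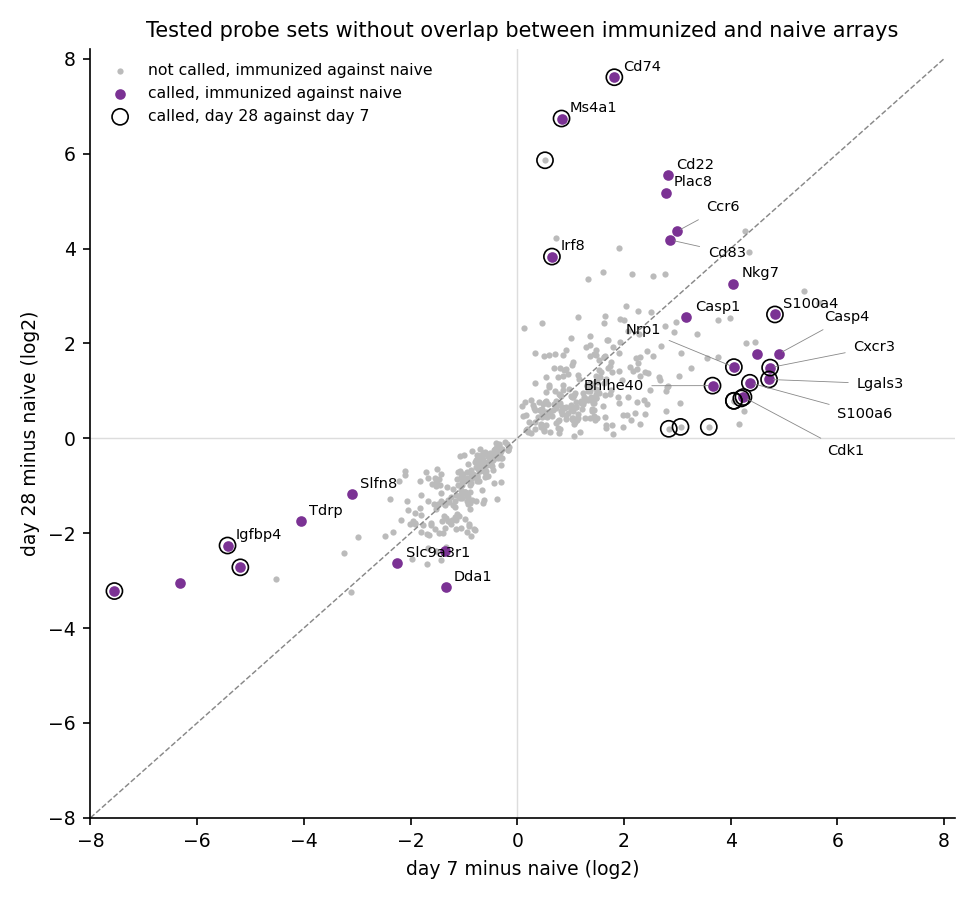
Day 28 minus naive against day 7 minus naive, both log2, for the 515 tested probe sets without overlap. Purple points are called in immunized against naive, open circles are called between day 28 and day 7, and the dashed line marks equal differences; both axes share the naive arrays. Cd74 and Ms4a1 lie far above the line, Cdk1 and Lgals3 far to its right, and Nkg7, Casp1 and Slc9a3r1 near it.

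Different probe sets of a gene were compared where a gene had more than 1. The 515 tested probe sets included 445 genes with a single symbol, of which 212 had another tested probe set. In 18 genes at least 2 probe sets lay on one side without overlap, as in Igfbp4, Ldhb, Id2, Irf8 and Nrp1, and in 0 genes did probe sets lie on opposite sides. Of 363 other probe sets of these genes that overlapped, 261 differed in the direction of the member. This count was not set beside a share over all tested probe sets and was not tested. The split between higher and lower also moved under quantile normalization, to 283 and 529. Of the 515 tested, 386 and 383 still lay on the same side without overlap under quantile normalization and median centring.

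The 300 bases from 250 before to 50 after the start were searched on both strands in the RefSeq windows of the genes without overlap, 198 of 241 higher and 168 of 204 lower, and matches of different motifs could overlap. The CCAAT box was found in 41.9% of the windows of higher genes, 37.5% of those of lower genes and 39.0% of the 6357 windows of all tested genes. The cell cycle element TTTGAA was in 13.6%, 10.7% and 12.2%, and the ETS motif CCGGAA in 25.3%, 28.6% and 30.1%. Over all tested genes, TTCNNNGAA (STAT) was in 6.83%, the E-box CACGTG in 10.6%, the AP-1 motif TGANTCA in 5.29% and the interferon-stimulated response element in 3.27%. In higher genes these were in 8.08%, 9.09%, 3.03% and 3.54%, and in lower genes in 6.55%, 8.93%, 0.595% and 4.17%. The shares are descriptions and were not tested.

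The calls among the members depended on single arrays. Leaving out each array in turn, 4 to 27 of the 27 called probe sets stayed called, and 4 did so in all 8 cases: S100a4 and 3 probe sets of Igfbp4. Only these 4 stayed without naive replicate 2, day 7 replicate 3 or day 28 replicate 1. Without naive replicate 1, all 27 stayed and 490 probe sets were called in all. With a spike-in term 20 of the 27 stayed, and with the 5 immunized arrays taken as 1 group limma called 0 probe sets, with 828 at an unadjusted p under 0.05. In that fit the difference between day 7 and day 28 counts as spread within a group.

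**Figure D5:**
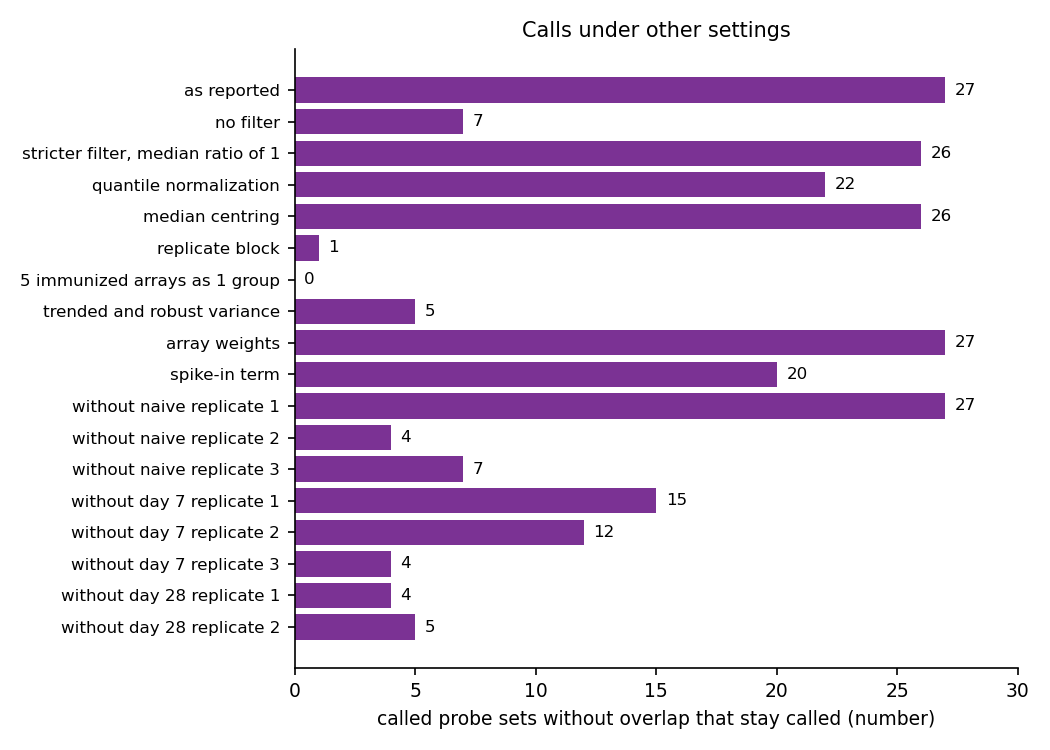
Number of the 27 called probe sets without overlap that stay called by limma (horizontal axis) under each other setting. The bars reach 27 without naive replicate 1 and with array weights, are at 4 without naive replicate 2, day 7 replicate 3 or day 28 replicate 1, and fall to 1 with the replicate number as a block and to 0 with the immunized arrays as 1 group.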

How the data were processed

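The submitters' processing notes name GCRMA (version not given), a background correction and summary for Affymetrix arrays. The deposited values are linear ratios. Their scaling was inferred: in 47.88% of probe sets the median ratio was 1 within 0.0015 and in no probe set was it higher, so values are relative to the probe set's median or, for dim ones, to a floor. The ratios were taken to log2 and fitted with limma 3.58.1 in R 4.3.3, with 1 mean per group over the 8 arrays and empirical Bayes moderation. Tests were two-sided. Of 22626 probe sets without controls, 13042 whose ratio reached 1 on 2 or more arrays were tested. The script was tested on simulated data. Per-array totals do not exist for arrays, so their number limits the precision. Of 22626 probe sets, 20380 carry 1 symbol, 691 several and 1555 none; 20351 matched a RefSeq gene, with 0 symbols changed. Upstream sequences come from RefSeq, GRCm38.p6; the arrays' own build is not given in the sources used here.

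The members and the 35 gene lists were chosen with earlier results of these data known; 1 list is not reported here. The text names up to 15 called genes per direction by size of difference (filled up with uncalled ones), up to 4 per list by adjusted p, up to 5 per direction between day 28 and day 7, the 3 on each side of the rule's edge and a fixed set of markers. Other genes were named after their values were seen, as the text says or to complete a count. Receptor segments and unnamed genes were counted only. Alternatives were other filters, quantile normalization, centring, trended and robust variance, array weights, a spike-in term, a replicate block, the immunized arrays as 1 group, a stricter threshold, gene means and leaving out each array.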

Additional observations from a re-analysis of the deposited data

Results flagged for a closer look

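For 18 of the probe sets named, limma's test of day 28 against day 7 had an adjusted p under 0.05. With a spike-in term it called 0 of the 515 tested probe sets without overlap between the time points (56 at an unadjusted p under 0.05), and without day 28 replicate 1 it called 2. Higher at day 28 were Ms4a1 (log2 difference 5.91), Cd74 (5.79), Ly6d (5.33) and Irf8 (3.18), genes known from B cells or antigen-presenting cells. Lower at day 28 were the division genes Cdk1 (-3.37), Cdca5 (-3.36), Ccna2 (-3.27) and Nusap1 (-2.82), and the effector or memory genes Lgals3 (-3.47), Cxcr3 (-3.25), S100a6 (-3.19) and S100a4 (-2.22). Egln3 (-3.35), Nrp1 (-2.55) and Bhlhe40 (-2.54) were lower as well. Among the genes below naive, 3 probe sets of Igfbp4 were higher at day 28 than at day 7 (4.32, 3.17 and 2.47). All 18 kept 1 direction against naive at both time points, which the rule requires.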

How the results depend on the processing

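The 40 calls of immunized against naive numbered 31 to 42 under the stricter filter, quantile normalization, centring and the spike-in term. They were 13 with no filter, 6 with trended and robust variance, 193 with array weights, 4 at an adjusted p under 0.01 and 0 with 1 immunized group. Leaving out 1 array gave 4 to 490. The 20 calls between day 28 and day 7 among members became 12 with the stricter filter, 7 with trended variance, 63 with array weights, 0 with the spike-in term, 5 at 0.01 and 2 to 34 without 1 array. The 28 calls counted over the gene lists became 8 with no filter, 0 with 1 group, 6 with trended variance, 70 with array weights, 4 at 0.01 and 4 to 83 without 1 array. Day 7 against naive (152 calls) had 94 with no filter and 17 to 1727 without 1 array, and day 28 against naive (42) had 2 to 57. The 832 probe sets without overlap were 515 after the filter, 442 with a median ratio of 1, and 85 and 27 at a gap of 0.5 and 1. Without 1 array they were 999 to 3855, as leaving out an array can only add to them. With the replicate number as a block, these counts were 1 for immunized against naive (1032 at an unadjusted p under 0.05), 2, 1, 16 and 9. Deviations of same-numbered arrays correlated between -0.36 and 0.17, and those of arrays with different numbers between -0.19 and 0.35. Deviations from means of 2 or 3 arrays depend on each other, so these values cannot show whether the numbers pair the arrays. No named gene changed sign where either fit called it; uncalled differences near 0 did, as for S1pr1 (-1.18 to 0.24 without 1 array). The weights gave day 7 replicate 3 a weight of 9.5, beside 0.29 to 1.74 on the others, and that fit gave a convergence warning. With 8 arrays, genes near the floor have only compressed differences.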
